A study of Mus musculus with 13 samples.

Results

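KAT7-skewed CpG islands are here the autosomal CpG islands near a transcription start site (TSS) at which KAT7 reads were at least 2 times H3K14ac reads, each scaled as RPKM (reads per kilobase of island, scaled to the read total of the column). An island also had to hold at least 40 reads in the H3K14ac and KAT7 columns together. The rule gave 559 islands of the 10885 that reached 40 reads (5.14%), in a class of 13263 islands and a table of 240814 regions. The islands were thus selected on their KAT7 and H3K14ac values, so both are given as a description with no test. Chromatin immunoprecipitation and sequencing (ChIP-seq) was done on neural stem and progenitor cells from the cortices and ganglionic eminences of E14.5 mouse embryos, grown as neurospheres to passage 5, day 3. The labels name Kat7lox/loxNesCreT/+ cells, in which Kat7 is deleted by Cre from a nestin-driven transgene, and Kat7+/+NesCreT/+ cells with Kat7 intact. Both genotypes carry the Cre transgene. The 13 libraries were 3 H3K14ac and 1 KAT7 from deleted cells, 4 H3K14ac and 3 KAT7 from intact cells, and 1 IgG for each of the H3K14ac and KAT7 experiments. The values used were 1 merged H3K14ac column and 1 merged KAT7 column. Which libraries and which genotype entered them is not given in the sources used here, so the genotypes were not compared and no IgG background was subtracted.

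KAT7, also called HBO1, is a histone acetyltransferase that works in complexes with a BRPF or JADE scaffold, ING4 or ING5, and MEAF6. With a BRPF scaffold it acetylates lysine 14 of histone H3, the mark that H3K14ac antibodies recognise. CpG islands are stretches rich in G, C and CpG dinucleotides that lie at most promoters of housekeeping and developmental genes and are mostly unmethylated. The antibodies share no common scale, so the ratio of KAT7 to H3K14ac compares scaled reads and is not a measure of acetylation per bound enzyme. There are no replicates behind the merged columns. Intervals are 95% exact binomial intervals for ratios and shares, exact Poisson intervals for levels and order-statistic intervals for medians. Intervals for shares and medians take islands as independent, and those for ratios and levels take reads as independent. Reads are not independent molecules, and no interval covers variation between libraries.

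Among the 20 islands with the highest lower bound of the ratio, 11 hold the start of their own gene in the RefSeq promoter table (GRCm38.p6, from 250 bases before the start to 50 after it). The first 6 of these windows by lower bound are shown. Socs6 ranked above Rasa2 and Mon2 above Sbf2, but their islands hold no window start of their own gene. Reads were counted over the island and not the window. Of the 300 window bases, 121 lie in the island at Rasa2, 253 at Pheta1 and 261 at Sbf2. The windows of Zfp384, Rbm15b and Nr2c2 lie wholly inside. Each is written 5′ to 3′ on the strand of its gene, with CpG dinucleotides in capitals. The Zfp384 window is chr6:125008988-125009287 (plus strand), that of Pheta1 chr5:121848747-121849046 (plus strand) and that of Rbm15b chr9:106887026-106887325 (minus strand). The Rasa2 window is chr9:96631454-96631753 (minus strand), that of Nr2c2 chr6:92092183-92092482 (plus strand) and that of Sbf2 chr7:110614871-110615170 (minus strand).
Zfp384: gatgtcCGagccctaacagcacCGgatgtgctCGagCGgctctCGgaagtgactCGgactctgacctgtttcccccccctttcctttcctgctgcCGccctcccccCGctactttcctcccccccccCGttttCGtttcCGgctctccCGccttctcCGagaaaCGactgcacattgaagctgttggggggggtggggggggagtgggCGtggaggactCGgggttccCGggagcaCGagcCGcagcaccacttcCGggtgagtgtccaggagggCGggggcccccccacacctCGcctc
Pheta1: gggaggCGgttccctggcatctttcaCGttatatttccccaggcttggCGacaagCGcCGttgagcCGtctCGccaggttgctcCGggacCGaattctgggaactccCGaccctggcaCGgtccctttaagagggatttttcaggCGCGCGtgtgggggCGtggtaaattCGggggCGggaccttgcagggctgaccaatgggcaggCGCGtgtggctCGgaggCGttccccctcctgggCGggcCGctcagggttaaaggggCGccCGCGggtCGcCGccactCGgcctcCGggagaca
Rbm15b: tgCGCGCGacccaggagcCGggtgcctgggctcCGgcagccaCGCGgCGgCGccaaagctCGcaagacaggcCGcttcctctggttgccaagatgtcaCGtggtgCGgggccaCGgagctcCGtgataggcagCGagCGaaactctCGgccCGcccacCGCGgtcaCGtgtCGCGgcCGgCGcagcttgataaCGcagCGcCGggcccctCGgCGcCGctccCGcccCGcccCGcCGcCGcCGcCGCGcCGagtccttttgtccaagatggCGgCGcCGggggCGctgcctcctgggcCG
Rasa2: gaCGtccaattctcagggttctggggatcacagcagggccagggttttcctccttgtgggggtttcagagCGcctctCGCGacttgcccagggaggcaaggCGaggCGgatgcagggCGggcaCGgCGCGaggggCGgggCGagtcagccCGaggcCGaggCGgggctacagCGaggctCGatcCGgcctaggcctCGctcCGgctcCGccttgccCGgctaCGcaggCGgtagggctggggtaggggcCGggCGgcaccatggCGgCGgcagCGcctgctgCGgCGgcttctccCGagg
Nr2c2: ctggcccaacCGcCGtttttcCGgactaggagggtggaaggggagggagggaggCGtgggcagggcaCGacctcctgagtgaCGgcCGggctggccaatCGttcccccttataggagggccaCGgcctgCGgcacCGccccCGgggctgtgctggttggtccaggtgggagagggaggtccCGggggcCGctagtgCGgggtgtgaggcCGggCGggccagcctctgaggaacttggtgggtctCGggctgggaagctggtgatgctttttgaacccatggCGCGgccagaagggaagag
Sbf2: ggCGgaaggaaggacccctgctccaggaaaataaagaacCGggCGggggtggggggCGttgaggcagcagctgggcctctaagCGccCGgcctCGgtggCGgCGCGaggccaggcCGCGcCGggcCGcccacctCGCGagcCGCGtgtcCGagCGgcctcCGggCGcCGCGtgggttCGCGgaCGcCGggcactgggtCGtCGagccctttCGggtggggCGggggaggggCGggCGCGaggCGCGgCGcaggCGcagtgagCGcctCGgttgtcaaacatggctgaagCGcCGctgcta
The windows held from 20 CpGs (Nr2c2) to 46 CpGs (Rbm15b) in 300 bases, with GC contents between 66.7% and 75.3%. Each held GGGCGG, the core of the SP1-type GC box, on one strand or the other, with the highest number, 4, at Sbf2. Over the 332 members with such a window 76.8% held it (71.9 to 81.2), and 76.9% of the 6761 islands with a window did (75.8 to 77.9).

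The members had little H3K14ac and somewhat more KAT7 than other islands. Their median H3K14ac level was 0.247 RPKM (0.235 to 0.256), against 0.483 RPKM (0.478 to 0.487) over all 10885 islands. Their median KAT7 level was 0.599 RPKM (0.577 to 0.610), against 0.504 RPKM (0.501 to 0.508) over all islands. H3K14ac was below the median of all islands at 536 of 559 members, and KAT7 was above it at 395. Both held at 372 members. The H3K14ac levels of 362 members (64.8%) lay in the lowest 10% of all islands, whereas the KAT7 levels of 140 (25%) lay in the highest 10%. The 164 members with KAT7 below the median of all islands had H3K14ac that was lower still. Of the members, 350 had a ratio under 2.5, 114 from 2.5 to under 3, 64 from 3 to under 4 and 31 of 4 or more. The median ratio was 2.31 in members and 1.06 over all islands.

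**Figure D1:**
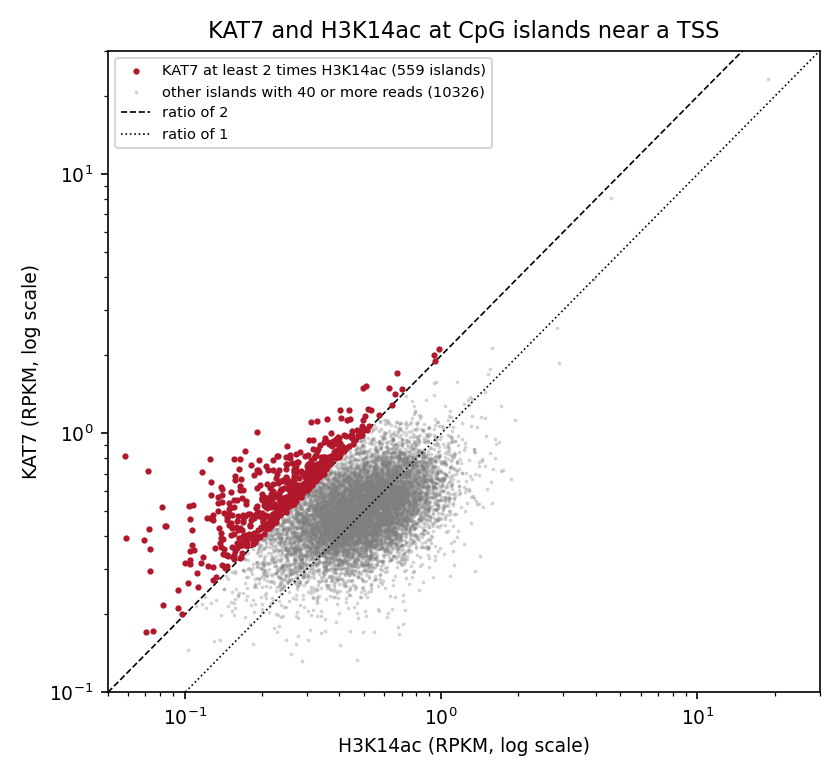
KAT7 against H3K14ac, both in RPKM on log axes, for the 10885 islands with 40 or more reads. The 559 KAT7-skewed islands (red) lie above the dashed line of ratio 2, mostly to the left of the other 10326 (grey), with a median H3K14ac of 0.247 RPKM against 0.483 RPKM over all islands. A single point is an island, and the dotted line marks a ratio of 1.

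Zfp384, which encodes a zinc-finger transcription factor, had the highest ratio. Its island (chromosome 6, 125008833 to 125009436, mm10), which holds the TSS, had 66 KAT7 reads and 5 H3K14ac reads, or 0.816 RPKM (0.631 to 1.04) for KAT7 and 0.0585 RPKM (0.0190 to 0.137) for H3K14ac. The ratio was 14.0 (5.69 to 44.4). Its H3K14ac level was the lowest of all 10885 islands, while its KAT7 level was above the median of members. Pheta1, which encodes an endosomal adaptor that binds the phosphatase OCRL, had 47 KAT7 reads and 5 H3K14ac reads (ratio 9.93, 3.97 to 32.0). In both islands the ratio rests on 5 H3K14ac reads, which is why its interval is wide.

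Rbm15b combined a high ratio with many reads. The gene encodes an RNA-binding cofactor of the m6A methyltransferase complex, and its island (chromosome 9, 106885631 to 106887477) holds its TSS. The island had 198 KAT7 reads and 43 H3K14ac reads, with KAT7 at 0.80 RPKM (0.692 to 0.919) and H3K14ac at 0.164 RPKM (0.119 to 0.221). The ratio of 4.87 (3.48 to 6.94) had the third highest lower bound of all members. Among the others of the 20 with the highest lower bound, Socs6, an adaptor of the family that suppresses cytokine signalling, had 66 KAT7 and 11 H3K14ac reads (ratio 6.34, 3.32 to 13.3). Rasa2, a GTPase-activating protein for Ras, had 60 KAT7 and 10 H3K14ac reads (ratio 6.34, 3.22 to 13.9). Nf1, a further Ras GTPase-activating protein and the gene of neurofibromatosis type 1, was in place 17 of the 20 and had 87 KAT7 and 24 H3K14ac reads (ratio 3.83, 2.41 to 6.30). Nr2c2, an orphan nuclear receptor also called TR4, had 79 KAT7 and 16 H3K14ac reads (ratio 5.22, 3.02 to 9.57). All 4 of these islands hold the TSS of their gene.

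Npas3, a brain bHLH-PAS transcription factor, had 56 KAT7 and 10 H3K14ac reads in an island that lies 4502 bases downstream of its TSS (ratio 5.92, 2.99 to 13.0). Mon2, which acts in traffic between endosomes and the Golgi, had a ratio of 6.11 (2.98 to 14.1), and Sbf2, a myotubularin-family pseudophosphatase, had 5.06 (2.81 to 9.74). Zfp804a, a zinc-finger gene, reached 6.69 (2.81 to 19.4) on 38 KAT7 and 6 H3K14ac reads. Phf3, whose product binds RNA polymerase II, was the nearest gene of an island 10311 bases upstream of its TSS, with a ratio of 4.91 (2.73 to 9.47). Phip, a bromodomain protein that is an adaptor of a CUL4 ubiquitin ligase, had 4.17 (2.5 to 7.31). Prkaca, the catalytic subunit of protein kinase A, had 37 KAT7 and 7 H3K14ac reads (5.59, 2.46 to 14.8). Dlgap3, a postsynaptic scaffold, had 4.47 (2.41 to 8.92), Usp25, a deubiquitinase, 4.16 (2.37 to 7.72) and Katnbl1, a regulator of the microtubule-severing katanin, 5.15 (2.37 to 12.8). In the whole set 49 members had a lower bound of at least 2 and 207 of at least 1.5. In 17 members the H3K14ac count was below 10 reads.

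Among the members with most reads were islands of Tlx2, Pou3f3, Sp9, Dmrta2, Adrb1, Arid1a, Igf2bp1 and Yy1. Tlx2, a homeobox factor of enteric neurons, had the most, 309 KAT7 and 101 H3K14ac reads over an island of 2786 bases (chromosome 6, 83068670 to 83071455). KAT7 there was 0.827 RPKM (0.738 to 0.925) and H3K14ac 0.256 RPKM (0.208 to 0.311), a ratio of 3.23 (2.57 to 4.09). Pou3f3, a POU factor of the developing forebrain, had 272 KAT7 and 131 H3K14ac reads at its TSS island (chromosome 1, 42696574 to 42698657). Its KAT7 level was 0.974 RPKM (0.861 to 1.10), and its H3K14ac level of 0.444 RPKM (0.371 to 0.527) was close to the median of all islands. Sp9, a transcription factor of ganglionic eminence neurons, had 227 KAT7 and 86 H3K14ac reads in an island 1958 bases downstream of its TSS (ratio 2.79, 2.17 to 3.62). Dmrta2, a cortical patterning factor, had 228 KAT7 and 96 H3K14ac reads in an island 4921 bases downstream (ratio 2.51, 1.97 to 3.22). The TSS island of Adrb1, the beta-1 adrenergic receptor, had a ratio of 2.52 (1.96 to 3.26), that of Arid1a, a subunit of the SWI/SNF remodelling complex, 2.43 (1.89 to 3.14), and that of Igf2bp1, an mRNA-binding protein, 2.16 (1.69 to 2.77). Yy1, a zinc-finger regulator, had 198 KAT7 and 104 H3K14ac reads and a ratio of 2.01 (1.58 to 2.58), near the threshold.

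Islands on either side of the threshold had nearly the same values. Among islands with 100 or more reads, Sfta3-ps, Vps54 and Yy1 lay just inside, with ratios of 2.00, 2.00 and 2.01. Nckap1 (0.476 RPKM KAT7, 0.238 RPKM H3K14ac), Dok1 and Slc35a3 lay just outside, all with ratios that round to 2.00. The same rule with the antibodies exchanged gave 227 islands with H3K14ac at least 2 times KAT7 (2.09%). A lower bound of the ratio above 1 was found at 1550 of all islands (14.2%). All 559 members are among these by construction, since the ratio threshold and the read minimum together leave no lower bound at or below 1. That all members pass is therefore not a test of the skew. For 554 members the lower bound was also above the median ratio of 1.06, which the rule makes likely for the same reason. Of CpG islands that the file places far from a TSS, 98 of 1743 passed the same rule (5.62%), and of those near a TSS on chromosomes X and Y, 6 of 161 did (3.73%). By chromosome the share ran from 3.60% on chromosome 12 to 7.02% on chromosome 5 (51 of 727, 5.27 to 9.12).

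The share of members fell with the number of reads in an island. It was 9.74% (8.21 to 11.4) at 40 to 49 reads, 3.08% (2.43 to 3.84) at 100 to 149 reads and 1.73% (1.01 to 2.75) at 150 to 199 reads. Above that it was 1.92% (0.964 to 3.41) at 200 to 299 reads and 3.83% (1.67 to 7.40) at 300 or more, where 8 of 209 islands were members. In all, 448 members had fewer than 100 reads and 111 had 100 or more. Members had a median of 66 reads, against 85 over all islands. The share of islands skewed the other way moved less, with 41 of 1355 at 40 to 49 reads and 42 of 2438 at 100 to 149 reads. The part of counting error in the larger share at few reads was not tested, and length, position, expression class, GC content and several gene groups are therefore also given for islands with 100 or more reads.

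**Figure D2:**
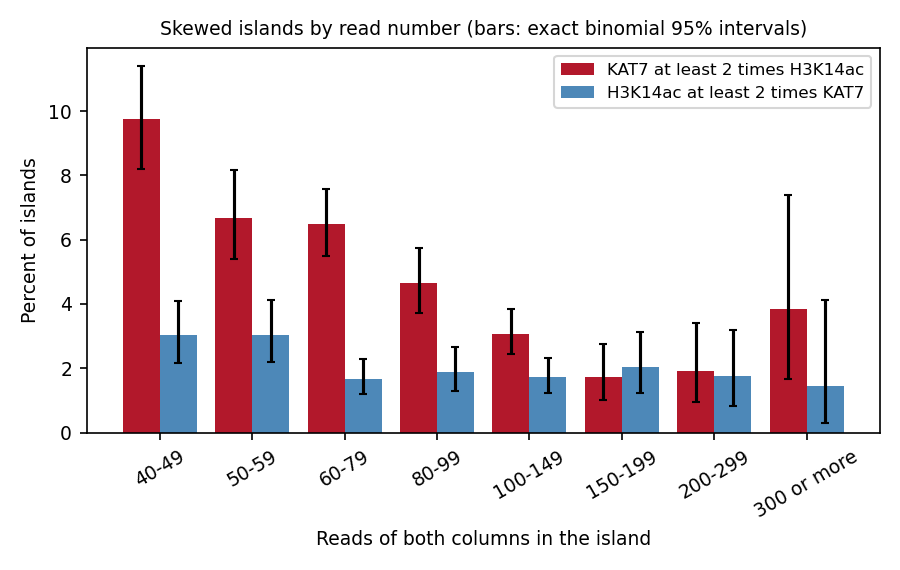
Percent of islands that were KAT7-skewed (red) and H3K14ac-skewed (blue), each by a ratio of at least 2, by the number of reads of both columns in the island. Bars are shares and error bars exact binomial 95% intervals; the KAT7-skewed share is 9.74% at 40 to 49 reads and 1.73% at 150 to 199.

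Members were slightly shorter than islands in general, but longer among islands with many reads. The median member was 603 bases long (583 to 632), against 641 bases (633 to 649) over all islands. With 100 or more reads the order turned, with 1113 bases (1020 to 1184) in members and 994 bases (981 to 1008) in all islands of that depth. At a given number of reads, longer islands were more often members. Among islands with fewer than 100 reads, members made up 5.82% (5.16 to 6.53) of those of 200 to 599 bases, 8.07% (6.87 to 9.41) of those of 600 to 999 bases and 14.9% (10.2 to 20.7) of those of 1000 bases or more. Among islands with 100 or more reads the shares at these lengths were 1.54% (0.422 to 3.91), 1.98% (1.40 to 2.72) and 3.38% (2.64 to 4.25). At a fixed read number a longer island has fewer reads per base. A long member with few reads is the island of 2075 bases (chromosome 14, 115040329 to 115042403) upstream of Mir17, of the miR-17 to miR-92 cluster, which had 0.173 RPKM KAT7 and 0.0748 RPKM H3K14ac (ratio 2.31, 1.37 to 4.01).

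Members held a TSS somewhat less often than islands in general. A TSS lay inside 386 of 559 members, 69.1% (65.0 to 72.9), against 73.7% (72.8 to 74.5) of all islands. Of the other members 120 lay downstream of the nearest TSS and 53 upstream. The midpoint lay over 1000 bases from the nearest TSS in 20.9% of members (17.6 to 24.5), against 14.6% of all islands (13.9 to 15.3). Among islands without a TSS, the median distance to the nearest was 2036 bases (1372 to 2487) in members and 1236 bases (1103 to 1324) in all islands. In islands without a TSS the share of members was 3.64% (2.47 to 5.15) where the nearest TSS was less than 500 bases from the midpoint, 9.58% (7.39 to 12.2) at 2000 to 4999 bases and 5.44% (3.64 to 7.76) from 5000 bases on. Among islands with 100 or more reads a TSS lay inside 69.4% of members (59.9 to 77.8), against 83.9% of all (82.7 to 85.0). Seen by position, with 100 or more reads, members were then 2.18% (1.73 to 2.72) of islands that hold a TSS, 4.17% (2.63 to 6.24) of those downstream of the nearest and 8.0% (4.20 to 13.6) of those upstream. Below 100 reads the 3 shares, 6.88%, 6.09% and 7.06%, had overlapping intervals. Where a TSS lay inside, the island midpoint lay a median of 102 bases downstream of it in members (87.5 to 114), against 118 bases in all islands (114 to 122). TSSs on both strands lay in 6.44% of members (4.55 to 8.80) and in 8.42% of all islands.

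The file sorts genes by expression into Top, Bottom and Other. What expression values lie behind this sorting is unknown here. As a check of the cell type, 5 of 10 neural stem and progenitor markers, Fabp7, Nes, Slc1a3, Sox2 and Vim, are in the Top class and 5 in the Other class. Of 6 neuron markers 1, Map2, is in the Top class, and of 3 astrocyte, 4 microglia and 3 endothelial markers none is. The Bottom class holds only 1 of all these markers, the endothelial Cdh5, so that class hardly separates the cell types. Top genes held 24 of the 386 members with a TSS, 6.22% (4.02 to 9.11), against 8.23% (7.64 to 8.85) of all islands with a TSS. Bottom genes held 7, or 1.81% (0.732 to 3.70), against 1.13%. Both member intervals include the share over all islands. Among islands with a TSS and 40 to 99 reads, 3 of 67 Bottom islands were members (4.48%, 0.933 to 12.5), against 16 of 285 Top islands (5.61%, 3.24 to 8.96) and 7.0% (6.24 to 7.82) of the Other class. With 100 or more reads, 4 of 24 Bottom islands were members (16.7%, 4.74 to 37.4), against 8 of 375 Top islands (2.13%, 0.925 to 4.16) and 2.08% (1.61 to 2.64) of the Other class. Bottom genes made up 5.19% (1.43 to 12.8) of members with a TSS at that depth, against 0.681% (0.437 to 1.01) of all such islands. These values rest on 4 islands.

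The Bottom members with most reads, counted by the nearest gene where no TSS lay inside, were those of Foxl2, Sfta3-ps, Hoxa11, Aldh1a2 and Uncx. Foxl2, a forkhead factor of the ovary and eyelid, had 149 KAT7 and 75 H3K14ac reads (ratio 2.10, 1.58 to 2.81), in an island it shares with the TSS of its antisense neighbour Foxl2os. Hoxa11, a limb and uterus Hox gene, had 111 KAT7 and 58 H3K14ac reads in an island 7658 bases upstream (ratio 2.02, 1.46 to 2.83). Aldh1a2, which makes retinoic acid, had 96 KAT7 and 37 H3K14ac reads at its TSS island (ratio 2.74, 1.86 to 4.12). Uncx, a homeobox gene, had 2.33 (1.58 to 3.47), and the Sfta3-ps island was the one just inside the threshold. Among Top genes the islands with most reads were those of Bub3, Spred1, Marcks, Hnrnpab and Fxr1. Marcks, a major substrate of protein kinase C, had 117 KAT7 and 33 H3K14ac reads in an island 2212 bases downstream of its TSS, with a ratio of 3.75 (2.53 to 5.69). Bub3, of the spindle checkpoint, had 206 KAT7 and 84 H3K14ac reads in an island 5404 bases upstream (ratio 2.59, 2.00 to 3.38). Spred1, an inhibitor of Ras signalling, had 2.28 (1.62 to 3.24), and the RNA-binding proteins Hnrnpab and Fxr1 had 2.03 and 2.02, all at TSS islands.

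By gene function, members were spread over most groups. Developmental transcription factor families were matched by gene symbol (Hox, Fox, Pax, Sox, Lhx, POU and some others), which left out members such as Tlx2, Sp9 and Dmrta2. The list had 22 members among 282 islands, 7.80% (4.95 to 11.6), an interval that includes the 5.14% of all islands. The median ratio over the 282 islands of the list was 1.23, against 1.06. Most of these members, 18 of 181 (9.94%, 6.0 to 15.3), lay in islands without a TSS, of which 6.03% (5.19 to 6.97) were members over all genes. Among the 101 that hold a TSS, 4 were members (3.96%, 1.09 to 9.83). With 100 or more reads 9 of 114 were members (7.89%), against 2.64% (2.18 to 3.17) of all islands of that depth and 5.01% (3.50 to 6.94) of those without a TSS. The interval of this 7.89% had a lower bound of 3.67% and so lay above the 2.64%. It included the 5.01% of islands without a TSS. Zic1, a factor of the dorsal neural tube, had 2 member islands in its gene region (ratios 2.14, 1.40 to 3.34, and 3.17, 1.70 to 6.29). The first, 3324 bases downstream of the TSS, had 2.01 RPKM KAT7 and 0.937 RPKM H3K14ac, both well above the medians of all islands. Foxc1, a forkhead factor of the meninges and other mesenchyme, had 188 KAT7 and 91 H3K14ac reads (ratio 2.18, 1.69 to 2.84). Gsx1, a ganglionic eminence homeobox gene, had 37 KAT7 and 9 H3K14ac reads (ratio 4.34, 2.06 to 10.2). Lhx8, a LIM homeobox factor of cholinergic neurons, had a ratio of 2.38 (1.62 to 3.57) and Foxd1 had 2.74 (1.86 to 4.12). Pax5, Six2, Irx1, Tbx1, Sox15, Pou3f1, Nkx3-2, Hoxd13 and Hoxb8 had 1 member island each, with ratios between 2.01 (Nkx3-2) and 3.49 (Hoxb8), while Nkx2-3 (3.91 and 2.01) and Foxa1 (3.01 and 2.72) had 2 each.

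Chromatin regulators had 11 members among 150 islands, 7.33% (3.72 to 12.7), an interval that includes 5.14%, and 6 of the 11 hold a TSS. With 100 or more reads 2 of 71 were members (2.82%, 0.343 to 9.81), against 2.64% of all islands of that depth. Beside Arid1a and Phf3 they were Phf12, a PHD-finger protein of SIN3 complexes (1.52 RPKM KAT7 and 0.511 RPKM H3K14ac, ratio 2.98, 1.98 to 4.58), Ezh1, a Polycomb methyltransferase of H3K27 (ratio 2.11, 1.36 to 3.34), and Kmt5a, which methylates histone H4 (3.28, 1.93 to 5.83). Kmt2b, an H3K4 methyltransferase (2.05, 1.13 to 3.85), Kdm4b, a histone demethylase (2.07, 1.24 to 3.54), Phf2 (2.07, 1.25 to 3.50), Cbx6, a Polycomb chromodomain protein (2.17, 1.22 to 3.97), Chd1l, a remodeller (2.96, 1.61 to 5.74), and Ing5 made up the rest. Ing5, which reads methylated H3K4 within the KAT7 complex, was the 1 member among 9 islands of the complex's genes (11.1%, 0.281 to 48.2). The Ing5 island had 50 KAT7 and 23 H3K14ac reads (ratio 2.30, 1.38 to 3.94). The TSS island of Kat7 was not a member and had more H3K14ac than KAT7 (0.788 and 0.432 RPKM, ratio 0.548, 0.367 to 0.810). It fell short of H3K14ac at least 2 times KAT7, which none of the 9 islands reached. The 9 had a median ratio of 1.51 and lay on both sides of 1, with Brpf1 at 0.586 (0.427 to 0.798) and Jade2 at 1.82 (1.34 to 2.49). With 100 or more reads 0 of 5 were members (0 to 52.2), with a median ratio of 0.930. Neural progenitor genes gave 2 members among 31 islands (6.45%, 0.791 to 21.4), both at Msi1, an RNA-binding protein of neural stem cells. The intervals of the KAT7 complex and of the neural progenitor genes include 5.14%. The Msi1 TSS island (chromosome 5, 115429295 to 115430967) had 106 KAT7 and 29 H3K14ac reads (ratio 3.86, 2.54 to 6.04), and an island 7014 bases downstream of the TSS had 42 KAT7 and 18 H3K14ac reads (ratio 2.47, 1.39 to 4.55).

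Genes of RNA processing gave 14 members among 233 islands (6.01%, 3.32 to 9.88), led by Rbm15b, and 5 of 115 at 100 or more reads (4.35%, 1.43 to 9.85). Ythdf2, which binds m6A in mRNA and belongs to the same list, had 137 KAT7 and 70 H3K14ac reads (ratio 2.07, 1.54 to 2.80), and Exosc6, a subunit of the RNA exosome, had 2.11 (1.53 to 2.94). The ubiquitin pathway gave 18 of 280 (6.43%, 3.85 to 9.97), with Fbxo22, Ube2m and Ube2r2 highest in reads, and 3 of 145 at 100 or more reads (2.07%, 0.429 to 5.93). Mitochondrial ribosomal proteins gave 5 of 67 (7.46%, 2.47 to 16.6), among them Mrps6 (ratio 2.70, 1.73 to 4.30), whose island also holds the TSS of the inositol transporter gene Slc5a3. Translation factors and tRNA synthetases gave 5 of 72 (6.94%, 2.29 to 15.5). These were Eif4g1 (ratio 3.65, 2.19 to 6.33), Eif4e (3.10, 1.99 to 4.94), which is the cap-binding protein that Eif4g1 scaffolds, Eif5b, Rars2 and Iars. Zinc-finger genes gave 13 of 277 (4.69%), ion channels and transmitter receptors 8 of 131 (6.11%), vesicle traffic 9 of 149 (6.04%), solute carriers 8 of 215 (3.72%), small GTPases and their regulators 8 of 206 (3.88%), cytoskeleton and cilium 7 of 123 (5.69%), cell cycle, replication and repair 5 of 94 (5.32%) and microRNA genes 2 of 35 (5.71%). All of these intervals include 5.14%.

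Some groups had shares below 5.14%, and for 2 of the 23 groups, kinase and phosphatase families and adhesion and matrix genes, the interval over islands of all depths lay below it. At 100 or more reads it did not lie below the 2.64% of all islands of that depth, with 2 of 149 members in kinase and phosphatase families (1.34%, 0.163 to 4.76) and 0 of 26 in adhesion and matrix genes (0 to 13.2). Over all depths kinase and phosphatase families gave 6 of 288, 2.08% (0.768 to 4.48), among them Stk38l (ratio 2.21, 1.52 to 3.26), Ptpn4 (2.90, 1.90 to 4.52) and Prkaca. Adhesion and matrix genes gave 0 of 95, which allows a share of up to 3.16% by a limit of 3 islands and up to 3.81% by the exact interval. Cytosolic ribosomal proteins gave 1 of 75 (1.33%, 0.0338 to 7.21), an island 7492 bases from Rpl8, its nearest TSS, and 0 of the 67 islands that hold a TSS of the family. That 0 allows up to 4.48% by the limit of 3 islands and up to 5.36% by the exact interval, which includes the 5.14% of all islands and the 4.81% of all islands that hold a TSS. Their median H3K14ac level was 0.701 RPKM and their median KAT7 level 0.603 RPKM, both above the medians of all islands. Histone genes gave 1 of 58 (1.72%), respiratory chain subunits 1 of 71 (1.41%), genes named Tmem 2 of 134 (1.49%) and proteasome subunits 0 of 36, which allows up to 8.33% by the limit of 3 islands and 9.74% by the exact interval. The intervals of these last 4 groups and of the cytosolic ribosomal proteins include 5.14%.

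**Figure D3:**
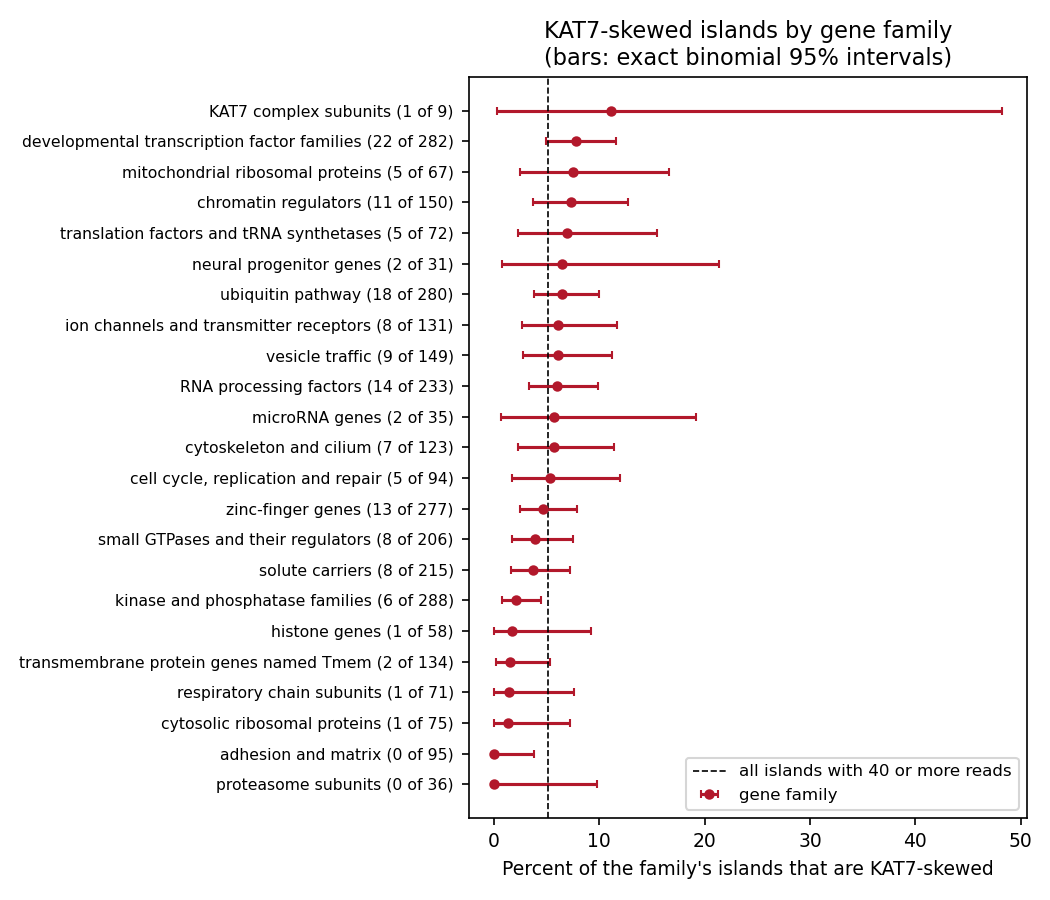
Percent of islands that were KAT7-skewed in each of 23 gene groups, by the gene whose TSS lies inside or nearest (points), with exact binomial 95% intervals (bars) and the 5.14% of all islands (dashed line). Most intervals cross the line; those of kinase and phosphatase families (6 of 288) and of adhesion and matrix genes (0 of 95) lie below it, which they do not at 100 or more reads (2 of 149 and 0 of 26, against 2.64% of all islands).

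The skew, on which the members were chosen, was much smaller beside the members than inside them. Elements of the classes the file calls Enh and IS that share no base with a CpG island and lie within 2000 bases of their nearest island were summed. Around members 366 such elements at 243 islands had a ratio of 1.17 (1.13 to 1.22), against 1.12 (1.11 to 1.14) for 6015 elements around other islands. Inside the islands themselves the summed ratios were 2.45 and 1.01. Within 500 bases of the edge the ratio was 1.22 (1.16 to 1.28) around members and 1.10 (1.09 to 1.12) around other islands. Beyond that, up to 2000 bases, the order was the other way, 1.08 (1.01 to 1.16) around members and 1.17 (1.15 to 1.19) around other islands. H3K14ac within 500 bases of members was 0.526 RPKM (0.508 to 0.545), against 0.237 RPKM (0.233 to 0.241) inside them. Within 500 bases of other islands it was 0.569 RPKM and inside those 0.497 RPKM. The KAT7 level within 500 bases was 0.639 RPKM (0.619 to 0.661) around members and 0.627 RPKM (0.621 to 0.632) around other islands. H3K14ac was low inside the members and near the level of other islands beside them, in the same columns that chose the members. How far reads were extended before counting is not given in the sources used here. Over the bodies of genes with the only TSS in an island, the summed ratios were 1.04 (1.04 to 1.05) for members and 1.03 for other islands. H3K14ac over these gene bodies was 0.385 RPKM for members and 0.381 RPKM for other islands, and KAT7 was 0.402 RPKM and 0.394 RPKM. Inside members H3K14ac (0.237 RPKM) lay below the gene body level and KAT7 (0.580 RPKM) above it, with no IgG subtracted. The rule chose members on the values inside them and not on those of elements or gene bodies. The contrasts of inside and outside are therefore a description only.

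**Figure D4:**
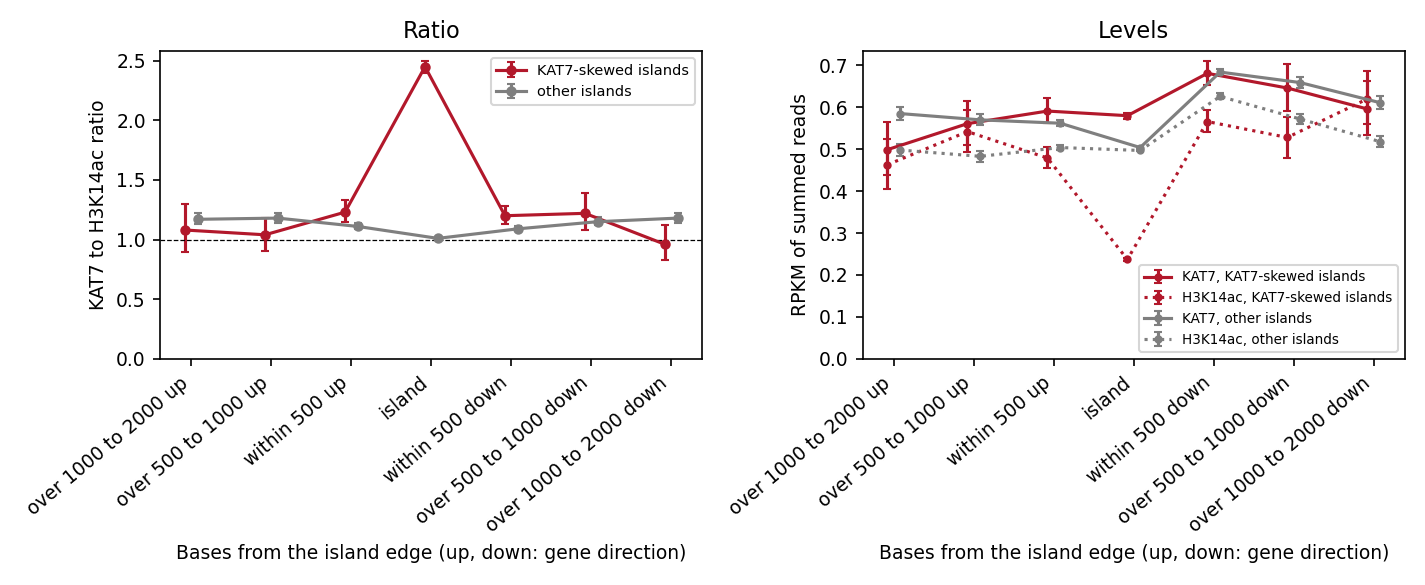
Ratio of KAT7 to H3K14ac (left) and RPKM of each (right, KAT7 solid, H3K14ac dotted) in elements upstream and downstream of islands by distance from the island edge, and inside the islands. Red is KAT7-skewed islands and grey other islands, with 95% counting intervals; the ratio inside members is 2.45 and within 500 bases 1.22, while H3K14ac inside members is 0.237 RPKM.

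Taken island by island, the elements beside members and beside other islands had shares with overlapping intervals. Of 94 members whose elements held 40 or more reads, 65 had a ratio above 1 there (69.1%, 58.8 to 78.3), against 867 of 1394 other islands (62.2%, 59.6 to 64.7). A ratio of 2 or more was found at 9 members (9.57%, 4.47 to 17.4), against 63 other islands (4.52%, 3.49 to 5.75). A lower bound above 1 was found at 14 members (14.9%, 8.39 to 23.7), against 125 other islands (8.97%, 7.52 to 10.6), and an upper bound below 1 at 3 members and 49 other islands. The median was 1.12 beside members and 1.10 beside other islands. The elements beside the Skida1 island had 43 KAT7 and 16 H3K14ac reads (ratio 2.84, 1.57 to 5.40). Those beside a member at Rfx4, a transcription factor of neural tube patterning, had a ratio of 3.08 (1.56 to 6.52), those at Zbtb7b 3.01 (1.56 to 6.17), those at Phf12 2.42 (1.34 to 4.57) and those at Lhx8 2.11 (1.31 to 3.49). Rtkn, with 18 KAT7 and 44 H3K14ac reads beside its island, went the other way (ratio 0.432, 0.235 to 0.764).

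For 122 members the same gene had at least 1 more island, 153 in all, of which 12 were members as well (7.84%, against 5.14% of all islands). The median ratio of the 153 was 1.15, and 94 lay above the median of all islands, 1.06. The 12 belong to 6 genes with 2 member islands each, so every pair was counted from both of its islands. The 6 genes were Msi1, Zic1, Foxa1, Nkx2-3, the large cytoskeletal linker gene Dst (ratios 2.19 and 2.20) and Rfx4 (2.55, 1.71 to 3.88, and 3.05, 1.72 to 5.64). A larger Zic1 island, with 174 KAT7 and 96 H3K14ac reads, had a ratio of 1.92 (1.48 to 2.48) and lay just under the threshold. The islands of Zic1, Rfx4 and Nkx2-3 that were both members lay 615, 716 and 1290 bases apart.

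Base composition could be read for 332 of the 559 members and 6761 of all islands, those that hold the start of a RefSeq promoter window. The median GC content of the window was 66.8% (65.3 to 68.7) in members and 65.0% (65.0 to 65.3) in all islands. It held a median of 28 CpGs (26 to 30) in members, against 25 (25 to 26). Among islands with 100 or more reads GC content was 72.0% (69.7 to 73.3) in 74 members, against 67.3% (67.0 to 67.7) in 2968 islands. Below 100 reads it was 65.3% (64.3 to 67.3) in 258 members and 63.3% (63.0 to 63.7) in 3793 islands. Across 5 groups of rising GC content the share of members was 4.39%, 4.44%, 3.67%, 4.79% and 7.23%. In the highest group, from 72.0% GC, 98 of 1356 islands were members (5.91 to 8.74). Levels of all islands also differed with GC content. The median H3K14ac level was 0.530 RPKM in the lowest group and 0.428 RPKM (0.416 to 0.439) in the highest, and the median KAT7 level was 0.544 RPKM and 0.458 RPKM (0.450 to 0.469) in those groups. The part of base composition in the skew was not tested.

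**Figure D5:**
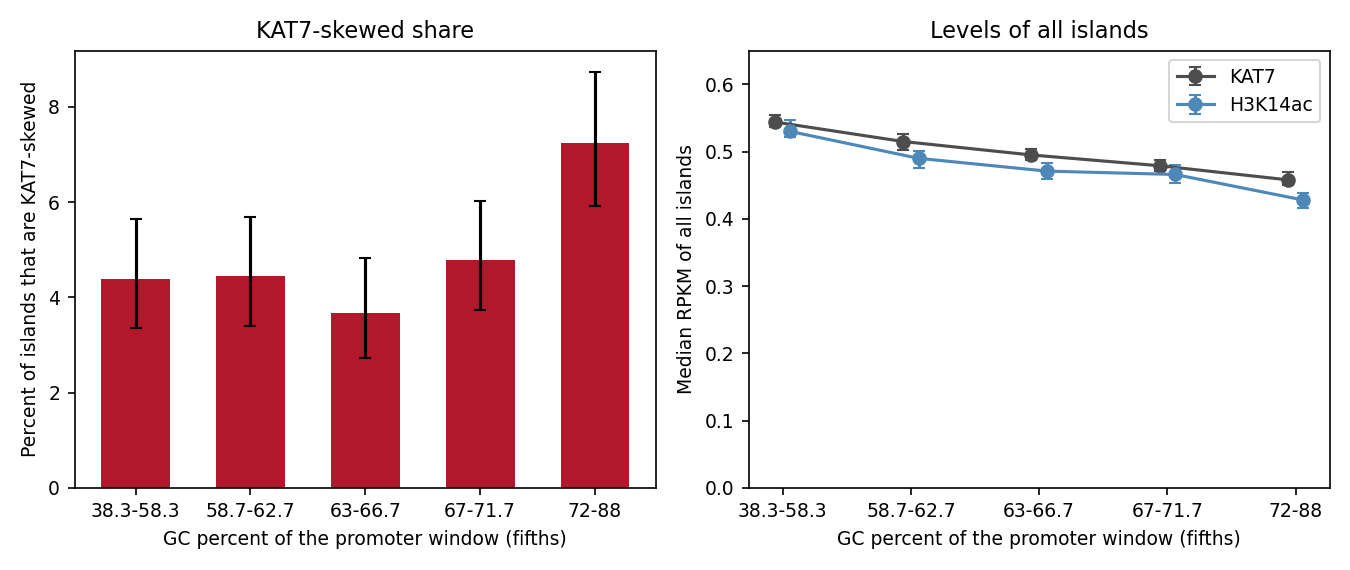
Left, percent of islands that were KAT7-skewed in 5 groups of rising GC content of the promoter window, with exact binomial 95% intervals; the share is 7.23% in the highest group and between 3.67% and 4.79% in the others. Right, median KAT7 (dark grey) and H3K14ac (blue) level of all islands in RPKM in the same groups, with order-statistic 95% intervals; both are lowest in the highest group.

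Short sequence motifs, searched on both strands of the same windows, had shares in members whose intervals include the share of all islands, with TGACGT as the exception. These shares are over all depths. The CCAAT box (CCAAT) was in 33.7% of members (28.7 to 39.1) and in 35.0% of islands. The E-box CACGTG was in 10.5% of members (7.45 to 14.4) and 11.5% of islands, the YY1 core AAGATGG in 7.83% (5.18 to 11.3) and 6.83%, the NRF1 core part GCGCATG in 8.43% (5.68 to 12) and 8.0%, and the TATA box TATAAA in 3.61% (1.88 to 6.23) and 4.97%. The ETS core CCGGAAG was in 15.7% of members (11.9 to 20), against 19.6% of islands (18.6 to 20.5). The CRE core part TGACGT was in 9.04% of members (6.18 to 12.6), against 12.8% of islands (12 to 13.6), which lies just above the members' interval. The ZBTB33 core part TCTCGCG was in 4.82% of members (2.78 to 7.71), against 6.55%. The RFX part GTTGCCA (3.61% of members and 3.56% of islands), the POU part ATGCAAA (3.61% and 2.56%) and the SOX core ACAAT (48 of 332 members, and 15.3% of islands) had member intervals that include the share of islands. In all promoters of the RefSeq table the GC box is in 35.7%, CCAAT in 37.4%, CACGTG in 7.15%, AAGATGG in 6.34%, GCGCATG in 3.91%, TATAAA in 13.6%, CCGGAAG in 8.86%, TGACGT in 7.51%, TCTCGCG in 2.56%, GTTGCCA in 4.38%, ATGCAAA in 4.63% and ACAAT in 31.0%. A match describes the letters of the window and is not a bound site.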

How the data were processed

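ChIP-seq reads of mouse neural stem and progenitor cells were deposited as 1 table of regions. Per the file headers, the deposited count columns hold reads per region in 1 merged H3K14ac and 1 merged KAT7 column, and the authors' RPKM columns hold the same reads per length and read total. The RPKM equals the count over end minus start and over 1 total per column, 141734087 for H3K14ac and 134111848 for KAT7, for 100% of regions with a count (relative tolerance 1e-06). Per the submitters' processing notes, featureCounts, deepTools, Picard, SAMtools and Bowtie2 were used with mm10. The role of each, the versions, the meaning of SC and gc in the column names and the libraries merged are not stated there.

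Islands were taken as the file lists them, and 0 of them share bases with another. An island belongs to the genes whose TSS it holds, from the file's gene coordinates and strand, or to the nearest. Symbols came from the RefSeq table of GRCm38.p6 (96.7% of 20689 gene identifiers). Promoter windows of that table stand in for island sequence, since no mm10 genome was used here. Neighbouring elements above 5 RPKM in either column, and Enh elements that share bases with an IS element, were left out. Shares carry Clopper-Pearson intervals at 95%, and a count of 0 allows a share of 3 counts of the total. The interval function was tested on simulated data. No p-value was computed. The members, the 23 gene lists, the 12 motifs and the comparisons were chosen with earlier results of these data known, and some list patterns were corrected after values had been seen. The genes named are the 20 members with the highest lower bound, the 8 with most reads, 3 islands on each side of the threshold among those with 100 or more reads, members of the 4 lists of KAT7 complex, neural progenitor, developmental factor and chromatin genes, the 5 Top and 5 Bottom members with most reads, and up to 3 of each other list. Gene pairs of 1 gene, neighbours of members, Mir17, Kat7 and members outside that rule were named after their values were seen. Analyses used Python 3.11.15 with pandas 2.3.3, numpy 2.4.6, scipy 1.17.1 and matplotlib 3.10.9. Alternatives changed the read minimum, the ratio, the scaling, the counting bound and a pseudocount of 0.1 RPKM.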

Additional observations from a re-analysis of the deposited data

How the results depend on the processing

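Leaving out islands that share bases with another removed none (559 members), so this setting tests nothing. Of 56 values under the other 7 settings, 33 moved by less than their interval (counts, by less than 1.5 times) and 23 by more. Centring the ratio on the median of all islands (435 members) and asking for a lower bound above that median (554) moved none of the 8 results. The lower bound setting kept nearly all members, so it could hardly move them. A minimum of 100 reads left 111 members, with a median length of 1113 bases, a midpoint 230 bases downstream of the TSS, 10.4% in the Top and 5.19% in the Bottom class, a ratio of 1.27 in elements beside them and 72.0% GC. The midpoint in this section is over all members, with or without a TSS inside. At the main setting it was 132 bases, against 147 bases over all islands. No minimum gave 952 members, a length of 446 bases, a midpoint at 96.2 bases and 60.8% with a TSS. A ratio of 1.5 gave 1873 members. Adding 0.1 RPKM to both columns left 240 members of 545 bases, 63.8% with a TSS and a ratio of 1.24 beside them. A minimum of 200 reads, chosen after seeing the data, left 19 members with a length of 2121 bases, 57.9% with a TSS, a midpoint at 362 bases, 0% in the Top and 9.09% in the Bottom class and 71.3% GC. The order against all islands turned for length (1653 bases over all islands at 200 reads) and for midpoint (202 and 296 bases over all islands at 100 and 200 reads), for the Top class with 0.1 RPKM added (8.50% in members, 8.23% in all) and for the elements beside islands at 200 reads (1.14 at members, 1.16 at all). By construction these settings change which islands enter, and the cause was not tested further. No paired analysis was possible because the merged columns carry no replicate numbers, and for the same reason no replicate could be left out. The median member held 20 H3K14ac reads, which limits the precision of single ratios.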
